A study of Mus musculus with 36 samples.

Results

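The 5 genes described here are those that make, break down and sense the brain's histamine: Hdc, Hnmt, Hrh1, Hrh2 and Hrh3. They were chosen by name, as the rows whose Ensembl mouse identifier carries these symbols in the GENCODE M21 annotation, and they are 5 of the 38924 genes in each count table. Poly(A) RNA of mouse hypothalamus, cortex and brainstem was sequenced in 36 strand-specific libraries. Both narcolepsy models of the study were sampled, with 3 libraries for each genotype in each tissue, and the strain is given as C57BL/6 throughout. The Hcrt/Orexin-ataxin-3 transgenic mice express a toxic ataxin-3 fragment from an orexin promoter, which kills the hypocretin (orexin) neurons of the lateral hypothalamus. They were set against wild types of the same line. The Hcrt/Orexin knockout mice lack the peptide gene, while the neurons are not targeted, and were set against wild types of their own line. The labels give no age or sex. They number the libraries of each line in each tissue, with the same numbers in all 3 tissues, but do not say whether a number stands for 1 mouse. Each p-value therefore measures the spread between libraries, which may be technical, and libraries of different tissues may come from the same mouse.

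Histidine decarboxylase, the product of Hdc, makes histamine from histidine, and in the brain it is found mainly in the tuberomammillary neurons of the posterior hypothalamus. Those neurons send fibres through most of the brain, fire during waking, and are excited by hypocretin through its receptor Hcrtr2, so they are a wake-promoting target of the lost peptide. Released histamine acts on the H1 receptor (Hrh1, coupled to Gq), the H2 receptor (Hrh2, coupled to Gs) and the H3 receptor (Hrh3, coupled to Gi and Go, which also serves as the autoreceptor of the histamine neurons). It is inactivated in brain mainly by histamine N-methyltransferase (Hnmt), after which monoamine oxidase B degrades the product. Larger numbers of histamine neurons have been reported in people with narcolepsy, which makes Hdc a gene to look up in both models.

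In GRCm38, Hdc (ENSMUSG00000027360) spans 126593667 to 126619299 of chromosome 2, minus strand. Hnmt (ENSMUSG00000026986) and Hrh3 (ENSMUSG00000039059) lie on the same strand and chromosome, at 24002910 to 24049394 and at 180099465 to 180104488. Hrh1 (ENSMUSG00000053004) spans 114397936 to 114483296 of chromosome 6, plus strand, and Hrh2 (ENSMUSG00000034987) spans 54192129 to 54236180 of chromosome 13, plus strand. All 5 are protein-coding and all 5 passed the filter on low counts in every fit. Exons of Hrh2 share 145 bases with the antisense gene Gm16578, and those of Hrh3 share 349 bases with the antisense gene Gm17180. Gm16578 had 0 counts in all 36 libraries, and Gm17180 had 3 counts over the hypothalamus libraries, 13 over those of cortex and 0 over those of brainstem.

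The promoters of 3 of the genes are shown because these genes have the most unlike regional patterns below: Hdc with the widest range, Hnmt with nearly none, and Hrh3 with its highest level in cortex. Each runs from 250 bases before to 50 after the RefSeq start (GRCm38.p6, minus strand, read 5′ to 3′), at chr2:126618629-126618928 for Hdc, chr2:24049330-24049629 for Hnmt and chr2:180104358-180104657 for Hrh3. Capitals mark GGGCGG on either strand.
Hdc: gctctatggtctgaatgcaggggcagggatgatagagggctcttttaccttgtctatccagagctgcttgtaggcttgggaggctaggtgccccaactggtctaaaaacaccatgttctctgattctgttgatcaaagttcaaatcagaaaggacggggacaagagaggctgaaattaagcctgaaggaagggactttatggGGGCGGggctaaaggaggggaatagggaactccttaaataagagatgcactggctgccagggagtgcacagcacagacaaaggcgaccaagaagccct
Hnmt: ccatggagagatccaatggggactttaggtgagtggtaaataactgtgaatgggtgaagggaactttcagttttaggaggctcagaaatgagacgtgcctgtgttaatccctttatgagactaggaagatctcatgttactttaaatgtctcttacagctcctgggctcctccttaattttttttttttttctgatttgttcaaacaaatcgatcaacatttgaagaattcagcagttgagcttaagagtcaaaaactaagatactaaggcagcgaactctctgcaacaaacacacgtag
Hrh3: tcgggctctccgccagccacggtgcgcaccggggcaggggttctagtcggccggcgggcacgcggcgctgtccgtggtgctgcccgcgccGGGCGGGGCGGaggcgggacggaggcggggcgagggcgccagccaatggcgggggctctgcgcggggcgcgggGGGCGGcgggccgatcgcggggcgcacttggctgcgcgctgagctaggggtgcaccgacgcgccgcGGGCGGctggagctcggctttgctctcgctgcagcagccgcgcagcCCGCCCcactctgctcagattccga
The Hdc promoter held 1 match and 3 CpG dinucleotides, that of Hnmt 0 matches and 4 CpG, and that of Hrh3 5 matches, a pair of them overlapping, and 47 CpG. Of 32851 RefSeq mouse promoters of this length 35.7% held GGGCGG, and the median was 7 CpG. TATAAA on either strand, which 13.6% of them held, was absent from these 3. These letters describe the windows, and no binding was measured.

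Gene counts ran from 21915540 to 47057537 per library. Each level is a CPM value, which relates a gene's reads to the size of its library, here scaled by TMM factors fitted over all 36 libraries. The labelled tissues carried their markers. The summed level of 10 hypothalamus markers was 1002 to 2100 CPM in hypothalamus and at most 26.2 CPM elsewhere. That of 7 cortex markers was 1802 to 1993 CPM in cortex and at most 269.9 CPM elsewhere, and that of 6 brainstem markers was 509 to 699 CPM in brainstem and at most 2.37 CPM elsewhere. Hcrt, the check of both models, had 2.07, 2.28 and 2.46 CPM in ataxin-3 transgenic hypothalami against 179.9, 100.8 and 196.1 CPM in their wild types. It had 1.14, 1.03 and 0.996 CPM in Hcrt knockout hypothalami against 81.2, 51.4 and 56.1 CPM in theirs. Outside the hypothalamus few Hcrt reads were counted, and there the knockouts were not lowest. In brainstem they had 0.886, 0.907 and 1.29 CPM against 0.141, 0 and 0.0530 CPM in their wild types, and in cortex 0.418, 0.440 and 0.350 CPM against 0.0342, 0.922 and 0.0255 CPM. The library labelled cortex knockout line wild type 2 thus carried more Hcrt, 30 reads, than the other 11 cortex libraries. It stood apart from libraries 1 and 3 of its own group, which had 1 read each. Its 10 hypothalamus markers summed to 3.69 CPM, inside the 2.08 to 6.46 CPM of the others. Over 7 meninges markers the summed level was 1080 to 1493 CPM in transgenic hypothalami against 319 to 983 CPM in their wild types. It was 763 to 1250 CPM in knockouts against 543 to 1045 CPM in theirs. Cortex markers reached 202 CPM in knockout line wild-type hypothalamus, and at most 89.6 CPM in that of the other genotypes. The part of these differences in the histamine genes was not tested. By Omp or Gh alone, transcripts of neighbouring tissue were abundant in 4 hypothalamus libraries. Omp, a gene of olfactory neurons, had 594.9 CPM in ataxin-3 transgenic library 1. The pituitary hormone gene Gh had 22210 and 11720 CPM in ataxin-3 line wild type libraries 1 and 3, and 16260 CPM in knockout line wild type library 3. Without these 4 libraries 5 of 5 histamine genes still passed between hypothalamus and cortex and 4 of 5 between hypothalamus and brainstem, and the model values are given both ways.

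Hdc, the only gene of histamine synthesis, was the most region-bound of the 5. Over the 12 hypothalamus libraries it had a lowest level of 51.6, a median of 67.0 and a highest level of 83.1 CPM. In cortex these were 0.338, 0.806 and 1.17 CPM, from 11 to 44 reads a library, and in brainstem 2.33, 2.86 and 3.73 CPM. No library of one tissue overlapped another tissue's range, and the order was hypothalamus, brainstem, cortex. Hypothalamus exceeded cortex (log2 fold change 6.47, SE 0.11, edgeR adjusted p = 2.1e-28), by 88.5-fold with a 95% interval of 75.3 to 104.1. Of the 17744 genes in that fit, 97 differed by at least as much, or 0.547%. Hypothalamus exceeded brainstem by 4.53 (SE 0.10, edgeR adjusted p = 4.8e-26), and cortex lay below brainstem (log2 fold change -1.93, SE 0.13, edgeR adjusted p = 3.9e-14). In bulk tissue, more cells of a type and more RNA per cell cannot be told apart.

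Histamine is also made by mast cells, so 9 mast cell genes were read beside Hdc. The 7 most specific of them were near 0 in hypothalamus: the proteases Cpa3, Tpsb2, Tpsab1, Mcpt4 and Cma1 averaged 0.0983, 0.147, 0.0288, 0.111 and 0.0772 CPM there, and the IgE receptor genes Ms4a2 and Fcer1a averaged 0.00433 and 0.00229 CPM. Kit and Gata2, which brain cells also use, averaged 39.2 and 5.28 CPM. The summed level of the 9 was lower in hypothalamus, at 34.2 to 53.8 CPM, than the 49.8 to 64.7 CPM of cortex or the 47.2 to 82.5 CPM of brainstem, with overlapping ranges. In hypothalamus Kit and Gata2 made up most of this sum, so it does not compare mast cells between tissues. Tpsab1 and Fcer1a were at 0 in all cortex libraries. The 10 hypothalamus markers summed to 2.08 to 6.46 CPM in cortex and 16.6 to 26.2 CPM in brainstem, in the order of Hdc. Their part in the Hdc level of these tissues was not tested.

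Hnmt, which methylates histamine outside the releasing neuron, was nearly level across the brain. It ranged from 19.6 to 32.3 CPM in hypothalamus with a median of 23.9, from 20.3 to 24.4 CPM in cortex with a median of 21.3, and from 21.6 to 26.4 CPM in brainstem with a median of 23.3. Every pair of tissues overlapped. The log2 fold change was 0.18 for hypothalamus against cortex (SE 0.05, edgeR adjusted p = 0.0043) and -0.12 for cortex against brainstem (SE 0.05, edgeR adjusted p = 0.040). For hypothalamus against brainstem it was 0.05 (95% interval -0.06 to 0.16, edgeR adjusted p = 0.38), which did not pass. The cortex to brainstem call is weak: it was lost on leaving out any of 12 libraries, up to an adjusted p of 0.068 without cortex Hcrt knockout library 1, and also with no filter on low counts (edgeR adjusted p = 0.085) and with the replicate number of each genotype as a block (edgeR adjusted p = 0.056). Differences at least as large were found for 80.1% of genes between hypothalamus and cortex and for 87.9% between cortex and brainstem.

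Hrh1 followed the order hypothalamus, cortex, brainstem with no overlap between tissues. Its lowest, median and highest levels were 25.4, 29.1 and 36.3 CPM in hypothalamus, 17.5, 18.7 and 20.3 CPM in cortex, and 12.3, 14.0 and 15.3 CPM in brainstem. The log2 fold change was 0.64 for hypothalamus against cortex (SE 0.04, edgeR adjusted p = 2.0e-14) and 1.08 for hypothalamus against brainstem (SE 0.04, edgeR adjusted p = 7.2e-20). Cortex exceeded brainstem by 0.45 (SE 0.04, edgeR adjusted p = 1.2e-10). This receptor, the target of sedating antihistamines, had its highest RNA level where the histamine neurons lie.

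Hrh2, the scarcest of the 3, was highest in cortex. It ranged from 1.68 to 3.33 CPM in hypothalamus with a median of 2.80, from 3.73 to 6.53 CPM in cortex with a median of 5.73, and from 2.90 to 3.67 CPM in brainstem with a median of 3.46. Cortex overlapped neither other tissue, while hypothalamus and brainstem overlapped. Hypothalamus lay below cortex (log2 fold change -1.06, SE 0.09, edgeR adjusted p = 1.7e-12), and cortex above brainstem by 0.74 (SE 0.09, edgeR adjusted p = 2.9e-09). The difference of hypothalamus from brainstem was -0.31 (SE 0.09, edgeR adjusted p = 0.0023), and -0.20 with an edgeR adjusted p of 0.071 among wild-type libraries alone.

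Hrh3, the autoreceptor that also sits on the endings of other neurons, was likewise highest in cortex, but followed by hypothalamus. Its lowest, median and highest levels were 61.2, 74.8 and 85.7 CPM in hypothalamus, 92.4, 106.6 and 123.5 CPM in cortex, and 24.4, 27.1 and 32.8 CPM in brainstem. The 3 ranges did not overlap. The log2 fold change was -0.57 for hypothalamus against cortex (SE 0.06, edgeR adjusted p = 6.1e-11) and 1.41 for hypothalamus against brainstem (SE 0.06, edgeR adjusted p = 7.0e-20). Cortex exceeded brainstem by 1.98 (SE 0.06, edgeR adjusted p = 6.2e-24), a fold of 3.95.

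**Figure D1:**
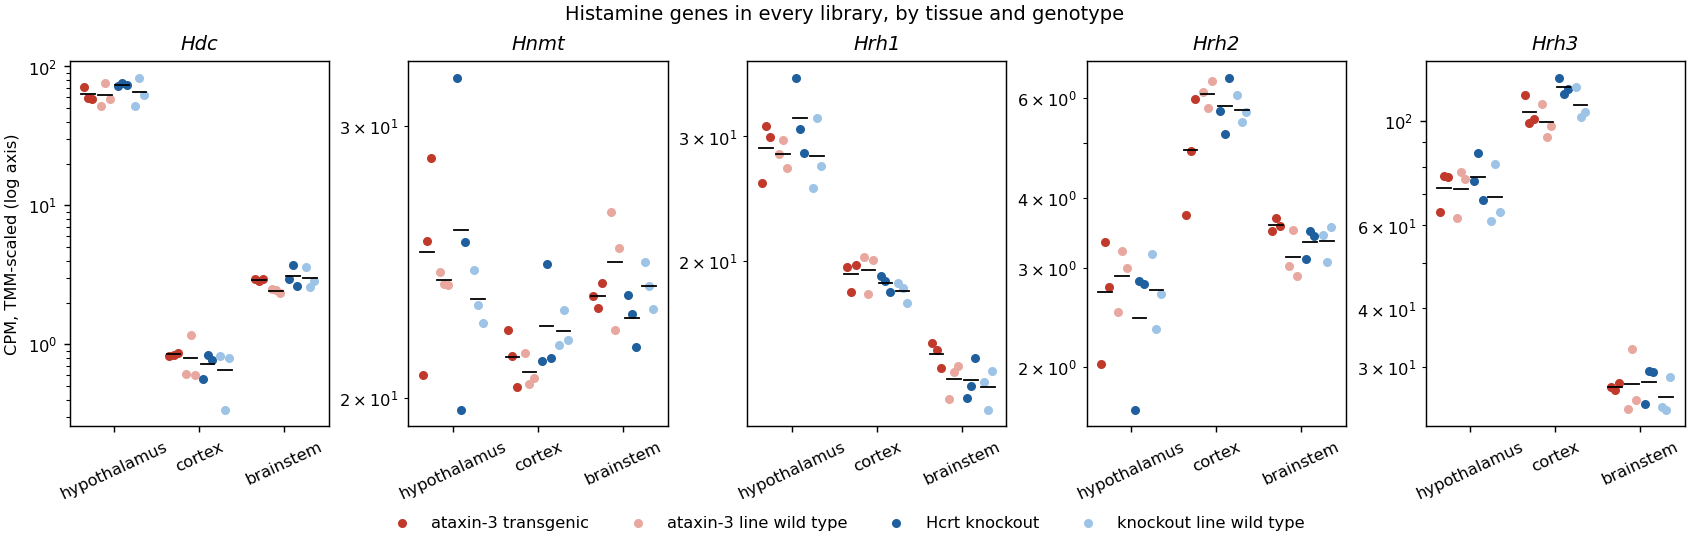
CPM of each histamine gene (log axis, its own scale in each panel) in the 36 libraries, by tissue on the horizontal axis and genotype by colour; points are libraries and black lines means of 3. Hdc spans from 0.338 CPM in cortex to 83.1 CPM in hypothalamus, Hnmt lies between 19.6 and 32.3 CPM everywhere, and the genotypes of a tissue mostly overlap.

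Regional calls were common among all genes, so the size of a difference says more than the count. In hypothalamus against cortex 5 of 5 histamine genes passed, where 83% of all genes did. Of the 5, Hdc, Hnmt and Hrh1 were higher, as were 42.7% of all genes, and Hrh2 and Hrh3 lower, as were 40.3%. In hypothalamus against brainstem 4 of 5 passed, against 76.8% of all genes. There Hdc, Hrh1 and Hrh3 were higher, as were 40.8% of genes, and Hrh2 lower, as were 36%. In cortex against brainstem 5 of 5 passed, against 84.7%, with Hrh1, Hrh2 and Hrh3 among the 41.6% higher and Hdc and Hnmt among the 43.1% lower. In hypothalamus against brainstem 215 genes, or 1.21%, differed by at least as much as Hdc. For Hrh3, the gene with the next largest differences, the count was 1944 genes in cortex against brainstem. Among Hnmt, Hrh1, Hrh2 and Hrh3 that difference, 3.95-fold, was the largest of the 12 between tissues.

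Divided by exon length, so that genes can be set beside each other, Hrh3 was the leading receptor gene in every tissue. It averaged 22.9 ± 2.55 CPM per kilobase in hypothalamus, 34.2 ± 3.06 in cortex and 8.64 ± 0.815 in brainstem (SD, n = 12, across genotypes). Hrh1 averaged 6.59, 4.23 and 3.10, and Hrh2 0.455, 0.948 and 0.565 CPM per kilobase in the same tissues. Of the summed per-length level of the 3, Hrh3 made up 76.5% ± 1.49 in hypothalamus, 86.8% ± 1.15 in cortex and 70.1% ± 1.66 in brainstem. Hrh1 made up 22.0%, 10.8% and 25.3%, and Hrh2 1.53%, 2.42% and 4.60%. The Gi-coupled receptor thus dominated the receptor RNA throughout, most of all in cortex, and Hrh2 had its largest share in brainstem although its level was highest in cortex. The H4 receptor gene Hrh4, known mainly from blood cells, was counted 1, 3 and 4 times in all of hypothalamus, cortex and brainstem, and was at 0 in 11, 9 and 8 of the 12 libraries, where a 0 allows at most 0.137 unscaled CPM. Between the enzymes, Hdc averaged 10.4 CPM per kilobase in hypothalamus beside 13.8 for Hnmt, and in cortex 0.118 beside 12.2. The order in hypothalamus depends on the divisors, merged exon lengths of 6389 bases for Hdc and 1769 for Hnmt. In CPM it was the reverse there, with 51.6 to 83.1 for Hdc and 19.6 to 32.3 for Hnmt.

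**Figure D2:**
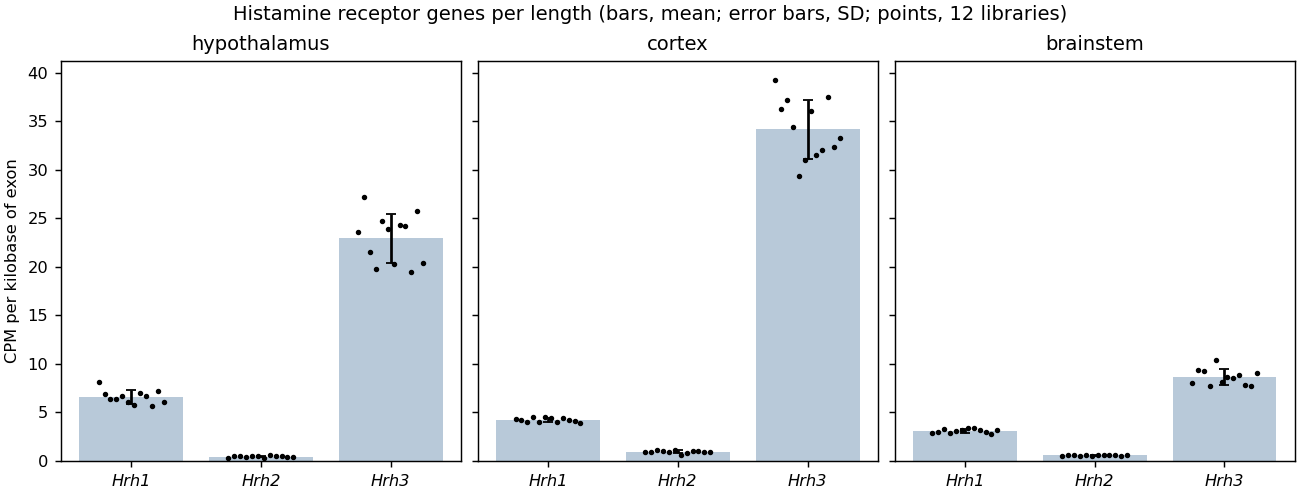
CPM per kilobase of exon of the 3 brain histamine receptor genes in hypothalamus, cortex and brainstem; bars are means of 12 libraries, error bars SD and points libraries. Hrh3 is the tallest bar in each tissue, averaging 22.9, 34.2 and 8.64, and Hrh2 stays below 1 on average.

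In the ataxin-3 transgenic hypothalamus, which had lost most of its Hcrt RNA, Hdc was not distinguishable from wild type. It had 71.6, 59.6 and 58.5 CPM in transgenic mice against 51.6, 75.7 and 58.4 CPM in their wild types. The transgenic values lay inside the wild-type range, and the log2 fold change was 0.04 (SE 0.17, edgeR adjusted p = 1.00). In Hcrt knockout hypothalamus it had 72.6, 76.5 and 73.3 CPM against 52.1, 83.1 and 62.3 CPM in wild types. The knockouts were closely grouped in the upper part of a wide wild-type range, at 0.18 on the log2 scale (SE 0.17, edgeR adjusted p = 0.82). That value was 0.04 without knockout line wild type library 1 and 0.37 without library 2. The 95% intervals ran from -0.33 to 0.41 in the transgenic and from -0.19 to 0.55 in the knockout comparison, so folds beyond 1.33 up in the transgenic and 1.46 up in the knockout lay outside them. Without the 4 libraries with neighbouring tissue the values were -0.37 (edgeR adjusted p = 1.00, 1 transgenic line wild-type library left) and 0.13 (edgeR adjusted p = 1.00). The summed level of 6 posterior hypothalamus markers was 39.3 to 48.3 CPM in transgenic and 60.8 to 68.7 CPM in wild-type hypothalami, with no overlap. It was 37.4 to 69.7 CPM in knockouts and 25.3 to 64.7 CPM in their wild types. In the transgenic comparison 9.64% of single genes had no overlap either. Of the 6 markers 0 passed the test there, where 0.00597% of all genes did. All 6 estimates lay below 0, with a median log2 fold change of -0.64, beside 0.01 over all genes tested. In the knockout comparison 4 lay above 0 and 2 below, with a median of 0.17. The part of these markers in the Hdc values was not tested.

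The other 4 genes gave the same picture in hypothalamus. Hnmt had 20.7, 25.3 and 28.6 CPM in transgenic mice against 24.1, 23.7 and 23.7 CPM in wild types, and 32.3, 19.6 and 25.2 CPM in knockouts against 24.2, 23.0 and 22.4 CPM. Its mutant values spread to both sides of tightly grouped wild types. The log2 fold changes of Hnmt, Hrh1, Hrh2 and Hrh3 were 0.07 (SE 0.16), 0.03 (SE 0.11), -0.10 (SE 0.23) and 0.02 (SE 0.12) in transgenic hypothalamus. In knockout hypothalamus they were 0.15 (SE 0.16), 0.18 (SE 0.11), -0.16 (SE 0.23) and 0.15 (SE 0.12). Without the 4 libraries with neighbouring tissue the same genes stood at 0.18, 0.03, -0.09 and -0.04 in transgenic and at 0.12, 0.15, -0.18 and 0.09 in knockout hypothalamus, with edgeR adjusted p of 0.985 or more. For Hrh3, which histamine neurons carry as autoreceptor, the libraries were 64.0, 76.5 and 76.1 CPM in transgenic mice against 62.2, 77.8 and 75.2 CPM in wild types, and 74.4, 85.7 and 67.9 CPM in knockouts against 61.2, 81.1 and 64.2 CPM. The transgenic values lay inside the range of their wild types, and the knockout values overlapped theirs and reached above it. Of the 5 genes 0 passed in transgenic hypothalamus, where 0.00597% of all genes did, and 0 in knockout hypothalamus, where 0.0119% did.

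In cortex, a target field of the histamine fibres, Hrh2 stood lower in the transgenic mice without passing the test. It had 3.73, 4.85 and 5.98 CPM in transgenic cortex against 6.17, 5.76 and 6.43 CPM in wild types. Transgenic library 1 was the lowest of all 12 cortex libraries, and library 3 lay within the wild-type range. Library 1 also stood apart in its reads: 10.6% of its total fell on no gene, against 12.7% to 13.9% in the other 11 cortex libraries, and 19.2% aligned to several places, against 16.0% to 17.1%. Its meninges markers summed to 815.8 CPM, against 485.8 to 642.2 CPM in the other 11. Its cortex markers, at 1811 CPM, lay inside the 1802 to 1993 CPM of the others. The part of these differences in its Hrh2 level was not tested. The log2 fold change was -0.33 (SE 0.14), with an unadjusted p of 0.030 and an edgeR adjusted p of 0.75, and over the other tools, filters and designs it ran from -0.34 to -0.17, with adjusted p from 0.67 to 1.00. Leaving out transgenic library 1 gave -0.17 (edgeR adjusted p = 1.00), leaving out library 3 gave -0.52 (edgeR adjusted p = 0.39), and the smallest adjusted p, 0.33, came without library 2. In knockout cortex Hrh2 had 5.70, 5.19 and 6.53 CPM against 6.08, 5.44 and 5.67 CPM in wild types (0.02, SE 0.14), and -0.01 without the library labelled wild type 2. The difference between the models' Hrh2 effects in cortex was -0.36 (SE 0.20, edgeR adjusted p = 0.93). Hrh3 had 113.5, 99.2 and 100.9 CPM in transgenic against 108.5, 92.4 and 97.5 CPM in wild-type cortex (0.07, SE 0.07), and 123.5, 114.0 and 117.1 CPM in knockout against 118.0, 101.7 and 104.6 CPM in wild-type cortex (0.13, SE 0.07). Both sets overlapped. Hrh1 and Hnmt stood at -0.02 and 0.03 in transgenic and at 0.04 and 0.01 in knockout cortex (SE 0.07 each), and Hdc at 0.10 (SE 0.31) and 0.11 (SE 0.34) from its 11 to 44 reads. The library labelled knockout line wild type 2 held the 11 reads, and without it Hdc in knockout cortex stood at -0.19 (edgeR adjusted p = 1.00). In cortex 0 of 5 passed in the transgenic comparison, where 0% of all genes did, and 0 of 5 in the knockout comparison, where 0.0789% did.

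Brainstem held the single case in which a model and its wild type did not overlap. Hdc had 2.97, 2.85 and 2.93 CPM in transgenic brainstem against 2.52, 2.48 and 2.33 CPM in wild types, 0.26 on the log2 scale (SE 0.16, edgeR adjusted p = 0.67). That was 1 of 30 combinations of gene, tissue and model, beside 9.76% of the tests over all genes in which the ranges did not overlap in these 6 comparisons. In wild type library 2, with 46 Hdc reads, 42.0% of the total was unassigned, and in library 1 this was 32.3%, against 27.0% to 28.6% in the other 10 brainstem libraries. The log2 value was 0.27 without library 2 and 0.29 without library 1. The wild types of the other line had 3.61, 2.57 and 2.86 CPM, a range that takes in all 3 transgenic values, and knockout brainstem had 2.96, 3.73 and 2.61 CPM (0.04, SE 0.15). Hrh2 stood at 0.20 (SE 0.12) in transgenic brainstem, Hrh1 at 0.12 (SE 0.08), Hnmt at -0.07 (SE 0.07) and Hrh3 at -0.01 (SE 0.10). In knockout brainstem these were -0.01 (SE 0.12), 0.03 (SE 0.08), -0.07 (SE 0.07) and 0.11 (SE 0.10). Of the 5 genes 0 passed in either comparison, where 0.00606% and 0.0728% of all genes passed.

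**Figure D3:**
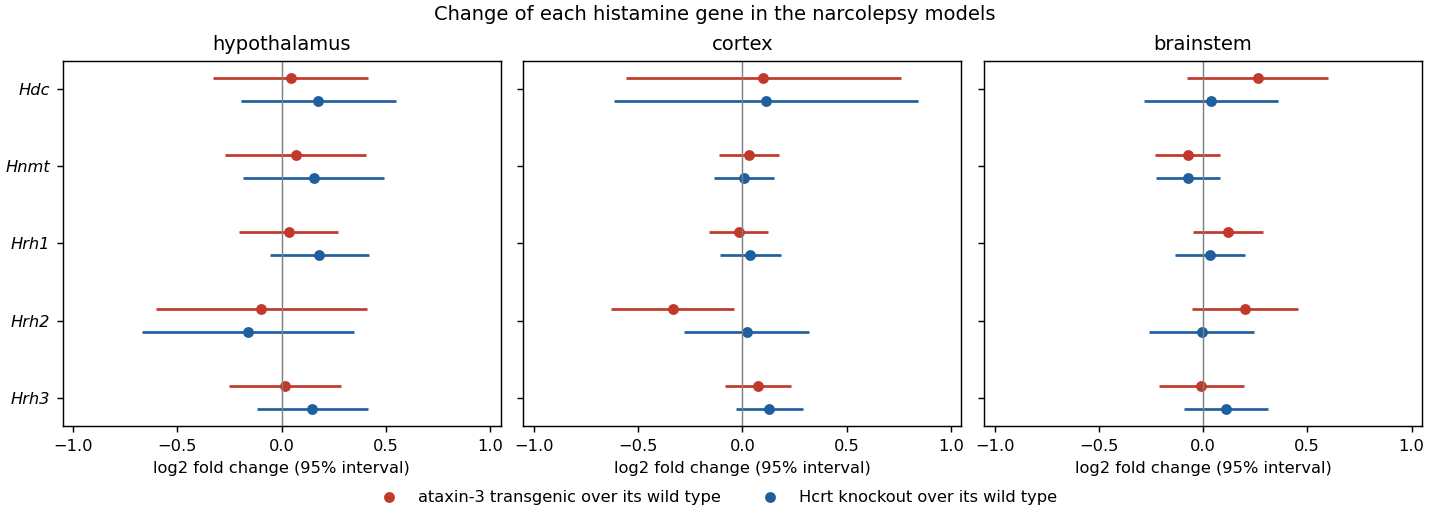
Log2 fold change of each histamine gene in ataxin-3 transgenic (red) and Hcrt knockout (blue) mice over their own wild types, in hypothalamus, cortex and brainstem; points are edgeR estimates and lines 95% intervals. All 30 intervals lie between -0.67 and 0.84, and all but that of Hrh2 in transgenic cortex include 0.

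Over the 30 model tests 0 passed, 1 had an unadjusted p under 0.05, and the smallest edgeR adjusted p was 0.67. DESeq2 and voom with quality weights also called 0. Log2 fold changes ran from -0.33 to 0.26, 22 of them above 0 and 8 below. The outermost bounds of the 95% intervals were -0.67 and 0.84, so for all 30 a 2-fold change in either direction lay outside the interval. These intervals are for single tests, and a miss of the threshold does not show that levels were equal. The difference between the models' effects was called for 0 of 5 genes in hypothalamus, cortex and brainstem, where 0%, 0.0243% and 0% of all genes were. It ran from -0.15 to 0.06, from -0.36 to 0.03 and from -0.12 to 0.22. The wild types of the ataxin-3 line were not called different from those of the knockout line in any tissue for any of the 5 (0% of all genes in each). The closest was Hdc in brainstem, at -0.32 (SE 0.16, edgeR adjusted p = 0.37). The test of whether an effect differs between tissues was also called for 0 of 5 in all 6 contrasts. DESeq2 and voom called 0 in each of these sets too. The background there was 0.00564% of genes for the knockout effect in hypothalamus minus cortex and in hypothalamus minus brainstem, and 0% in the other 4. The ataxin-3 effect on Hrh2 in cortex minus brainstem was -0.53 (unadjusted p = 0.038, edgeR adjusted p = 1.00).

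Hdc did vary between hypothalamus libraries, with a coefficient of variation of 15.7%, and it varied together with 2 other genes known from histamine neurons. Correlations with Hdc were computed only for 9 genes known from tuberomammillary neurons. The share of all genes that follow Hdc as closely was not determined. Across the 12 hypothalami Prph, which encodes the neuronal filament peripherin, had a Pearson r of 0.955 with Hdc on log2 CPM (permutation p = 1e-05, the smallest that 100000 permutations can give, adjusted 9e-05 over 9 genes). Spearman's rho was 0.944 (permutation p = 1e-05, adjusted 9e-05). Slc18a2, the vesicular monoamine transporter that loads histamine into vesicles, had r = 0.835 (permutation p = 0.00065, adjusted 0.0029) and rho = 0.930 (permutation p = 7e-05, adjusted 0.00032). Without the 2 libraries farthest from the median of Hdc, r was 0.959 for Prph and 0.769 for Slc18a2. Within the ataxin-3 line r was 0.971 and 0.931, within the knockout line 0.987 and 0.746 (6 libraries each), and without the 4 libraries with neighbouring tissue 0.937 and 0.800. Ataxin-3 line wild type library 1 and knockout line wild type library 1 were lowest in all 3 genes, with 51.6 and 52.1 CPM of Hdc, 12.7 and 11.6 CPM of Prph, and 47.2 and 46.6 CPM of Slc18a2. Knockout line wild type library 2 was highest in Hdc at 83.1 CPM and in Prph at 21.1 CPM. The wide wild-type ranges of Hdc thus recurred in genes beside it, and that spread lay within genotype groups.

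The other 7 genes of the list were less tied to Hdc. Maob, which degrades methylated histamine, had r = 0.701 (permutation p = 0.013, adjusted 0.040) and rho = 0.601 (permutation p = 0.042, adjusted 0.076). The call of r was lost on leaving out any of 8 single libraries. Without the 2 farthest libraries, whose absence also narrows the range of Hdc, r was 0.496 (adjusted permutation p = 0.32). It was 0.793 without the 4 libraries with neighbouring tissue (exact permutation, adjusted p = 0.036, n = 8), 0.610 within the ataxin-3 line and 0.908 within the knockout line. The hypocretin receptor gene Hcrtr2, with r = 0.584 and rho = 0.629, and Hrh3, with r = 0.577 and rho = 0.678, did not pass (adjusted permutation p = 0.094 for each r). Gad1 and Gad2, which make the GABA that histamine neurons also contain, had r of -0.436 and -0.519, Ada 0.319 and Gal 0.229, none past the threshold (adjusted permutation p from 0.13 to 0.48). Without the 4 libraries with neighbouring tissue Gad1 and Gad2 reached r of -0.779 and -0.813 (exact permutation, adjusted p = 0.036 each, n = 8). Most neurons of the hypothalamus that express these 2 genes are not histaminergic.

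**Figure D4:**
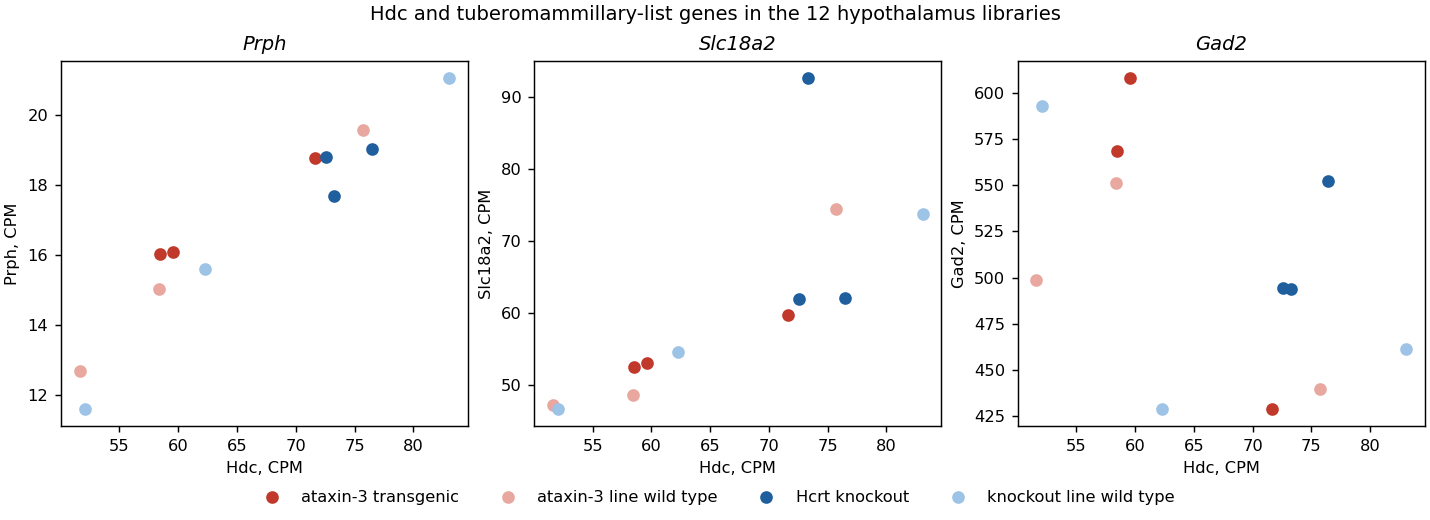
Prph, Slc18a2 and Gad2 (CPM, vertical axes, which do not start at 0) against Hdc (CPM, horizontal axes) in the 12 hypothalamus libraries, coloured by genotype. Prph and Slc18a2 climb with Hdc (r = 0.955 and 0.835 on log2 CPM), Gad2 does not (r = -0.519), and the points of a genotype do not form separate groups.

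Beyond the 5 genes, 12 others carry histidine or histamine across membranes, degrade histamine or its products, or sense it. Of these, 10 had enough reads to be tested, and Hal and Hrh4 had not. Between hypothalamus and cortex 8 were higher and 2 lower, between hypothalamus and brainstem 4 higher and 3 lower, and between cortex and brainstem 0 higher and 8 lower. Of all genes 42.7% were higher and 40.3% lower in the first of these comparisons, 40.8% and 36% in the second, and 41.6% and 43.1% in the third. The median log2 fold changes of the 10 were 1.17, 0.03 and -0.53, beside 0.03, 0.04 and -0.02 over all genes tested. Slc18a2 averaged 60.6 ± 13.8 CPM in hypothalamus, 0.278 ± 0.198 in cortex and 28.7 ± 5.79 in brainstem (SD, n = 12), where serotonin and catecholamine neurons use it as well. Slc29a4, a plasma membrane carrier that clears monoamines, averaged 28.2 CPM in hypothalamus, 6.27 in cortex and 42.1 in brainstem, its highest. Slc22a3, an organic cation carrier that can also move histamine, averaged 4.15, 1.72 and 1.77 CPM in the same tissues. Maob averaged 59.1, 24.8 and 31.6 CPM and Maoa 80.2, 37.5 and 72.9 CPM in hypothalamus, cortex and brainstem. Hypothalamus exceeded cortex by log2 fold changes of 1.25 for Maob and 1.10 for Maoa (edgeR adjusted p = 5.9e-21 and 2.9e-23). The transporters Slc7a5 and Slc38a3, which carry histidine among other amino acids, were the 2 lower in hypothalamus than in cortex, by -0.17 and -0.40. Aoc1, diamine oxidase, which degrades histamine outside the brain, averaged 0.225, 0.0135 and 0.314 CPM in the 3 tissues.

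The signalling genes downstream of the receptors were called in both directions, as were all genes by the shares given above. Of 13 effector genes, 6 were higher and 6 lower in hypothalamus than in cortex, 5 higher and 3 lower in hypothalamus than in brainstem, and 7 higher and 6 lower in cortex than in brainstem. The median log2 fold changes were -0.01, 0.01 and 0.20. Plcb1 and Itpr1, phospholipase C and the calcium release channel used by Gq-coupled receptors such as H1, were lower in hypothalamus than in cortex by log2 fold changes of -1.69 and -2.39. Adcy1, a calcium-stimulated adenylyl cyclase, was lower by -4.31, while Gnas, the Gs alpha subunit of H2 signalling, was higher by 1.02 and Gnai2, an inhibitory alpha subunit, by 1.01. Plcb1 and Itpr1 were also lower in hypothalamus than in brainstem, by -0.21 and -1.44 (edgeR adjusted p = 0.00080 and 1.6e-05). These 2 were thus lowest where Hrh1 was highest. The effector genes named here all serve many other receptors. The summed level of 5 cerebellum markers was 102 to 641 CPM in brainstem and 106 to 141 CPM in hypothalamus. The part of cerebellar tissue in the brainstem values was not tested.

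In the models 0 genes of either group passed in any tissue, by edgeR, DESeq2 or voom. Unadjusted edgeR p-values under 0.05 numbered 2 of 58 tests for the pathway genes and 2 of 78 for the effectors. The pathway genes with the smallest p were Aldh2, an aldehyde dehydrogenase gene, in transgenic brainstem (0.18, SE 0.06, edgeR adjusted p = 0.54) and Slc38a3 in knockout cortex (-0.19, SE 0.07, edgeR adjusted p = 1.00). Among the effectors they were Plcb3 in transgenic hypothalamus (0.32, SE 0.12, edgeR adjusted p = 1.00) and Plcb1 in knockout hypothalamus (-0.37, SE 0.15, edgeR adjusted p = 0.81). Of the 10 genes known from tuberomammillary neurons, Hdc and Hrh3 included, 0 passed in either hypothalamus comparison by any of these tools, and 0 had an unadjusted edgeR p under 0.05 there. The median log2 fold change of the 10 was 0.11 in transgenic and 0.18 in knockout hypothalamus, against medians over all genes tested of 0.01 and 0.01. In the transgenic hypothalamus 8 of the 10 estimates lay above 0, and in the knockout 9. Of all 16738 genes tested, 8824 and 8901 did. The 10 are not separate observations, as Prph and Slc18a2 varied together with Hdc. Hcrtr2, through which hypocretin reaches these neurons, had the smallest p in the knockout (0.23, SE 0.12, edgeR adjusted p = 0.81) and stood at 0.11 (SE 0.12, edgeR adjusted p = 1.00) in the transgenic mice.

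The genes whose pattern over the 12 group means came nearest to that of each histamine gene were found among the 17744 genes by the root mean square difference of centred log2 CPM. For Hdc these were Krt90 at 0.290, Brs3 at 0.296, Ghrh at 0.314, Mc3r at 0.362 and Magel2 at 0.387, where the median over all genes was 2.70. Brs3, Mc3r and Ghrh encode the bombesin-related receptor, the melanocortin receptor and the growth hormone releasing hormone of the hypothalamus. For Hnmt they were Asah1 at 0.032, Snx14, Tomm70a, 4930453N24Rik and Rrn3 at 0.040, with a median over all genes of 0.359. For Hrh1 they were Pnma2 at 0.049, Gspt2, A430033K04Rik, Tmem107 and Slc24a3 at 0.068, with a median of 0.575. Those nearest to Hrh2 were Rap1gap2 at 0.068, Kif5a, Myh9, Cyfip2 and Ptgfrn at 0.081, with a median of 0.570. Hrh3 was nearest to Map3k5 at 0.095, Ccdc39, Scn2a, Kif17 and Dapk1 at 0.109, with a median of 0.900. Many genes lay about as near: within 2 times the smallest distance were 15 genes for Hdc, 125 for Hnmt, 23 for Hrh1, 135 for Hrh2 and 45 for Hrh3. The 12 means come from only 3 tissues.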

How the data were processed

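RNA of 3 mouse brain tissues was isolated with a lipid tissue column kit and made into stranded poly(A) libraries from 500 ng, per the labels' protocols. The authors deposited raw counts per Ensembl gene, 1 table a library. Per the submitters' processing notes, cutadapt 1.2.1, TopHat2 2.0.9, HTSeq 0.5.4p3 and GRCm38 were used. The labels and files used here give no strand setting, overlap mode or annotation release of the counting. The 5 lines for unassigned reads, 24.7% to 42.0% of a library's total, were left out. Reads aligned to several places made up 16.0% to 26.4%. GENCODE M21 named 37607 of 38924 identifiers, and promoters came from RefSeq (GRCm38.p6).

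Counts were tested with edgeR 4.0.16 in R 4.3.3 (TMM factors, default filter by group, robust quasi-likelihood test), with Benjamini-Hochberg adjustment over all genes tested and a threshold of 0.05. The 12 libraries of a tissue entered 1 fit, with 16738 (hypothalamus), 16479 (cortex) and 16493 (brainstem) genes, and tissues were compared in a fit of all 36 libraries. The biological coefficient of variation was 18.0%, 7.35% and 9.03% in the 3 tissues. Standard errors are the fold change over the root of the F statistic, and levels per kilobase use the length of merged exons. Correlations used permutation tests in numpy. Limits on zero counts (3 counts) cover counting error only. The scripts were tested on simulated data with 200 genes changed 2-fold. In the transgenic comparison 70% of these were recovered in hypothalamus, 83.5% in cortex and 82.5% in brainstem. Between hypothalamus and cortex 88.5% were. Genes not changed made up 10 of 150, 12 of 179, 8 of 173 and 11 of 188 calls, in the same order. Pairs of libraries of a group all differed by more than sampling noise (chi-square per degree of freedom of 2.46 or more).

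The members and lists were chosen with earlier results of these data known. The text names the 5 members always, of each other list described genes past the threshold (up to 6 with the smallest p) or, where none passed, up to 4 with the smallest p, and the 5 nearest profiles. Further list genes were named after their values were seen: the mast cell genes, Aoc1, Slc22a3, Slc7a5, Slc38a3, Hrh4 and the 2 neighbouring-tissue genes Gh and Omp. Alternatives were DESeq2 1.42.0, limma 3.58.1 voom with quality weights, relative log expression factors, other filters, only the groups compared, wild types only, a replicate block, and leaving out each library or the 4 with neighbouring tissue (Gh over 1000 or Omp over 100 CPM). Those of the correlations were chosen after seeing the data.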

Additional observations from a re-analysis of the deposited data

How the results depend on the processing

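Over 18 comparisons of genotype, model difference, line and region of effect, 0 of the 5 genes passed in any of 487 fits under another setting or without 1 library, and the smallest adjusted p of a histamine gene in them was 0.22, against 0.37 in the fits reported. Between tissues the number past the threshold was 5 throughout for hypothalamus against cortex, 4 for hypothalamus against brainstem, or 3 among wild types only, and 4 or 5 for cortex against brainstem. Hnmt in cortex against brainstem lost its call with CPM over 1 in at least 3 libraries (adjusted p = 0.052), with no filter (0.085) and with the replicate block (0.056). Without single libraries its adjusted p ran from 0.012 to 0.068. It was lost without brainstem ataxin-3 line wild type 1 or 3, transgenic 3, knockout 1 or 2 or knockout line wild type 1, and without cortex ataxin-3 line wild type 2 or 3, knockout 1 or 3 or knockout line wild type 1 or 3. The cause was not tested.

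Uncalled model changes near 0 turned sign. With voom these were Hdc in transgenic hypothalamus (-0.013), Hnmt in knockout cortex (-0.0352), Hrh2 in knockout brainstem (0.0061) and transgenic hypothalamus (0.0290), and Hrh3 in transgenic brainstem (0.0465). Without the 4 libraries with neighbouring tissue they were Hdc and Hrh3 in transgenic hypothalamus (-0.369 and -0.0389), with 1 wild-type library left. Among wild types Hnmt in hypothalamus against brainstem was -0.0362. Without single libraries, transgenic hypothalamus ran from -0.0781 to 0.213 for Hdc, -0.0381 to 0.170 for Hnmt, -0.0116 to 0.0937 for Hrh1, -0.26 to 0.0564 for Hrh2 and -0.0750 to 0.0788 for Hrh3. Knockout hypothalamus ran from -0.0589 to 0.322 for Hnmt and -0.276 to 0.0333 for Hrh2. Transgenic cortex ran from -0.0806 to 0.485 for Hdc and -0.0727 to 0.0204 for Hrh1, and knockout cortex from -0.185 to 0.307 for Hdc, -0.0614 to 0.0463 for Hnmt and -0.0645 to 0.0871 for Hrh2. Transgenic brainstem ran from -0.0824 to 0.120 for Hrh3, and knockout brainstem from -0.111 to 0.188 for Hdc, -0.0204 to 0.0697 for Hrh1 and -0.0614 to 0.0387 for Hrh2. Of the 30 uncalled model values 27 moved by over 1.5 times on leaving out 1 library, 16 of them turning sign; of the rest, Hdc in knockout hypothalamus ran from 0.0365 to 0.370 and Hrh2 in transgenic cortex from -0.525 to -0.167. Lone libraries were assumed to vary like the other groups.

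Same-numbered libraries did not clearly deviate together more than others. Their r was over 0.1 in 5 of 18 pairs in hypothalamus, 0 of 18 in cortex, 7 of 18 in brainstem and 0 of 36 across tissues. For differently numbered libraries it was so in 7 of 36, 2 of 36, 13 of 36 and 4 of 72 pairs. The numbers were therefore not taken as pairs. With the replicate block 0 of 5 genes passed in every model comparison, as without it. Across settings without 1 library, r with Hdc ran from 0.942 to 0.968 for Prph and from 0.808 to 0.947 for Slc18a2, all past the threshold. For Maob it ran from 0.604 to 0.800 and was lost on leaving out any of 8 libraries (transgenic 1, knockout 1 or 3, ataxin-3 line wild type 1 or 2, knockout line wild type 1, 2 or 3), and for Hcrtr2 it passed without transgenic library 2 (0.720, adjusted p = 0.035). Hdc in cortex, with 11 to 44 reads, had the 95% interval that reached furthest, to a log2 change of 0.84.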
